A study of Mus musculus with 12 samples.

Results

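The 10 genes described here are Akr1b8, Hmox1, Srxn1, Gsta4, Gpx2, Gclm, Gclc, Nqo1, Txnrd1 and Slc7a11, enzymes and a transporter of the antioxidant and detoxification programme of the cell. They were chosen by name, with earlier results of these data known, and make up 10 of the 17097 genes tested. Each was read by the probe sets that the array annotation pairs with that gene alone, 14 in all. Akr1b8, Hmox1, Gsta4, Gpx2, Gclm, Gclc, Nqo1 and Txnrd1 had 1 probe set each, Slc7a11 had 2 and Srxn1 had 4. Srxn1 and Slc7a11 were led by their brightest probe set, by its mean on all 12 arrays.

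Cells came from the tail skin of CD1 mice, an outbred strain with no engineered allele, 4 and 7 days (D4 and D7) after a punch wound 3 mm wide. A 4 mm punch around the wound took skin enriched for the leading edge (LE), the front of epidermal cells that covers the wound, and a 6 mm punch then took the ring of the proliferative hub, where basal cells divide. Control skin was a piece of tail skin far from the wound, taken on the same days. The 3 regions of a day may thus come from the same mice, and the main fit did not pair them. The punches enrich for a zone and do not purify it, and the study worked with adult mice, without an age stated for those of the arrays. Each sample pooled 5 mice, and 300 living basal cells, positive for α6-integrin and negative for CD34, were sorted from it for amplification and hybridization. There were 2 arrays for each of the 6 groups (LE, hub and control at D4 and the same at D7). The labels call these biological replicates, but no source used here says that each came from its own pool of mice, so p-values measure the spread between these samples, which may be technical. Every value is only as precise as 2 arrays a group allow.

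NRF2, the protein of Nfe2l2, is held low in resting cells by KEAP1, which marks it for breakdown. Oxidants and electrophiles modify KEAP1, and NRF2 then gathers in the nucleus, pairs with a small MAF protein and binds antioxidant response elements near its target genes, from which the repressor BACH1 is displaced. In keratinocytes the pathway is known for protection from oxidative stress, and NRF2 is expressed in healing skin wounds of mice.

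All values are log2 intensities that the authors had normalized by robust multi-array averaging (RMA). Differences are log2 fold changes, on which 1 is a 2-fold change, and a gene is called where limma's adjusted p lies below 0.05. Array medians lay between 5.4 and 5.47 on the D4 arrays and between 4.25 and 4.28 on the D7 arrays, so levels are compared within a day only. The basal list (Krt5, Krt14, Krt15, Itga6, Itgb4, Trp63, Col17a1) had a mean of 10.73 to 11.96 over all 12 arrays, with none of its 7 genes below the array median in any group. Within it Krt15, a keratin of basal cells, was lower in LE than in control skin by -2.48 at D4 (adjusted p = 0.00256) and -1.88 at D7 (adjusted p = 0.0108), Itga6, the integrin of the sort, was higher by 0.42 at D4 (adjusted p = 0.0327), and Krt14 differed by -0.01 at D4 and 0.00 at D7. Krt6a, a keratin of wounded epidermis, read 12.84 and 12.73 in LE against 12.15 and 11.83 in control skin at D4, and 12.07 and 12.02 in LE against 10.84 and 10.96 in control skin at D7. Krt6b, a keratin of the same kind, read 12.03 and 12.06 in LE against 11.17 and 8.69 in control skin at D4, where the control arrays stood apart from each other, and 11.37 and 10.85 in LE against 3.04 and 3.17 in control skin at D7. Replicate arrays had an r between 0.987 and 0.993 across the 28898 probe sets paired with 1 gene, which are not independent replicates.

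The promoters of 4 members are shown because NRF2 target genes are recognised by the antioxidant response element, whose core is TGACNNNGC. Each window runs from 250 bases before to 50 bases after the RefSeq transcription start (GRCm38.p6) and is written 5′ to 3′ on the strand of the gene. Capitals mark a match to the core on either strand. In the 3 windows that hold one the match lies on the other strand, so that it reads as its reverse complement.
Akr1b8, chr6:34353896-34354195, plus strand: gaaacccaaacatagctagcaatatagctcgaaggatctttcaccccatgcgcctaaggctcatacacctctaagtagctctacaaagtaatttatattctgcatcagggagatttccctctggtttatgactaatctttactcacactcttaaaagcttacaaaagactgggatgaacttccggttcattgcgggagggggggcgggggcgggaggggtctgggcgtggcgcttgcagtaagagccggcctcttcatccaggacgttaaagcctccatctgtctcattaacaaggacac
Srxn1, chr2:152105274-152105573, plus strand: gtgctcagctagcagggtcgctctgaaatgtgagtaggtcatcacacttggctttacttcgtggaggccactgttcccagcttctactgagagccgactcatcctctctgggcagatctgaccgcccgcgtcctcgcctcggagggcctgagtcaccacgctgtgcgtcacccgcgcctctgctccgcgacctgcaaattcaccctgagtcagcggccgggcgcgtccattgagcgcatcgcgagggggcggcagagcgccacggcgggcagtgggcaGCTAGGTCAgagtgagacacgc
Gclm, chr3:122245307-122245606, plus strand: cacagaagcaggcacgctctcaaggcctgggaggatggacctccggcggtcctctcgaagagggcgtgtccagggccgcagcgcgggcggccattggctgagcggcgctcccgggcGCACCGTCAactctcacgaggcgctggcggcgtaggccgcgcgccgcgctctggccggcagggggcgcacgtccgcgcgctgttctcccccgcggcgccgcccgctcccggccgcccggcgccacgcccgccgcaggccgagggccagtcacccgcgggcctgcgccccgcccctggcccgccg
Txnrd1, chr10:82858956-82859255, plus strand: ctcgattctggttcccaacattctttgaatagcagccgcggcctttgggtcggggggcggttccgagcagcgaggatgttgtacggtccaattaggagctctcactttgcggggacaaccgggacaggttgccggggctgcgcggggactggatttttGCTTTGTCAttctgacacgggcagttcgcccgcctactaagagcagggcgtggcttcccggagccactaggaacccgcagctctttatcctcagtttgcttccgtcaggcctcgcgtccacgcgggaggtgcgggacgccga
RefSeq windows were found for 7 of the 10 genes (9 windows, 3 of them of Txnrd1), and 3 of the 9 held the core, against 12.4% of all 32851 windows. The match began 134 bases before the start in Gclm, 92 bases before it in Txnrd1 and at base 29 of the transcript in Srxn1. No match lay in the windows of Akr1b8, Nqo1, Gpx2 or Slc7a11 or in the other windows of Txnrd1. Hmox1, Gclc and Gsta4 had no window in the table. The AP-1 site TGACTCA, searched on both strands and able to overlap with the core, occurred 2 times in the Srxn1 window without overlapping the core, in no other member window, and in 5.2% of all windows. A match describes the letters of the window and not a bound site.

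In the LE, 7 of the 10 genes were higher than in control skin at D4 and 6 of 10 at D7, and none was lower. The background of calls over all genes was 8.3% upwards and 5.83% downwards for D4, and 9.25% upwards and 5.37% downwards for D7. The 10 genes were chosen with earlier results of these data known, so the background gives a scale and does not test the list. Akr1b8, Hmox1, Srxn1, Gsta4, Gpx2 and Gclm were called on both days, and Nqo1 at D4. The median log2 fold change over the 10 genes was 1.20 at D4 and 1.13 at D7, against 0.03 and 0.02 over all genes tested. In the hub, Akr1b8 was called higher at D4, and Akr1b8 and Hmox1 were called higher at D7. The background here was 0.222% upwards and 0.105% downwards for D4, and 0.591% upwards and 0.17% downwards for D7. The median of the 10 genes in the hub was 0.63 at D4 and 0.59 at D7, against 0.01 and 0.02 over all genes. LE and hub share the control arrays of each day, which ties their comparisons to each other. In sorted pools, a gene that differs in each cell and a different share of cells that express it cannot be told apart.

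**Figure D1:**
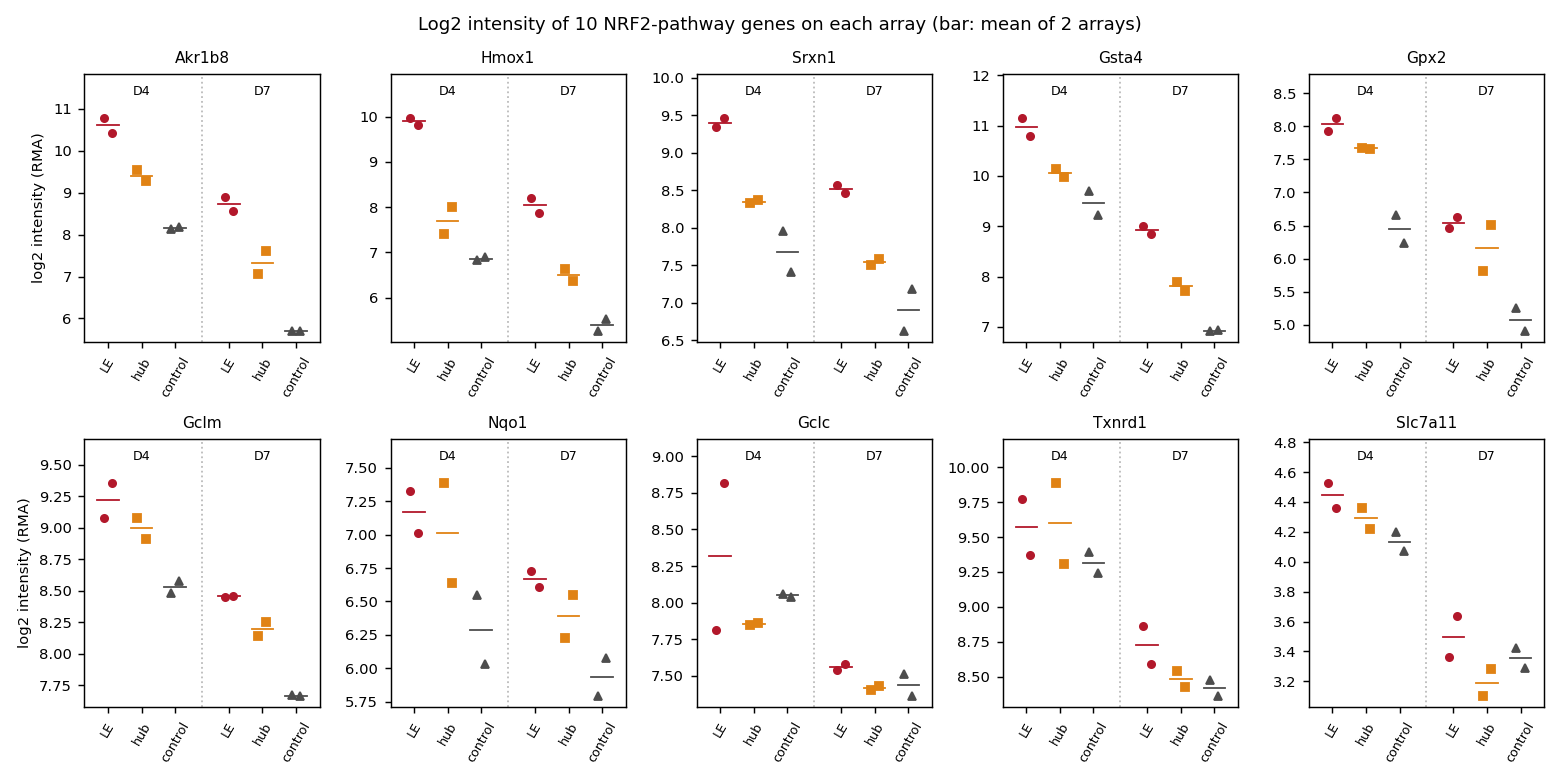
Log2 intensity (RMA) of each of the 10 genes on every array, with a panel for each gene and its own y axis; points are arrays, bars the mean of 2 arrays, and groups run LE, hub and control at D4 and then at D7. Akr1b8 lies at 10.43 to 10.79 in LE, 9.28 to 9.53 in hub and 8.14 to 8.18 in control skin at D4. The panels of Gclc, Txnrd1 and Slc7a11 show wound groups that overlap with control skin. LE and hub also overlap for Nqo1 and Gclm at D4 and for Gpx2 at D7.

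Akr1b8 encodes a mouse aldo-keto reductase that reduces aldehydes to alcohols with NADPH, and was first known as a gene that growth factor induces in mouse fibroblasts. At D4 it read 10.79 and 10.43 in LE, 9.53 and 9.28 in the hub, and 8.14 and 8.18 in control skin. At D7 it read 8.90 and 8.57 in LE, 7.06 and 7.60 in the hub, and 5.69 and 5.70 in control skin. On both days the 3 regions stood in the order LE, hub, control with no overlap, and the control arrays lay close together. The LE exceeded control skin by 2.45 at D4 (SE 0.19, 5.48-fold, adjusted p = 5.52e-05) and by 3.04 at D7 (SE 0.19, 8.24-fold, adjusted p = 3.97e-05). The hub exceeded control skin by 1.24 at D4 (SE 0.19, adjusted p = 0.0363) and by 1.64 at D7 (SE 0.19, adjusted p = 0.00839). The LE also exceeded the hub, by 1.21 at D4 (SE 0.19, adjusted p = 0.00742) and by 1.41 at D7 (SE 0.19, adjusted p = 0.00723).

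The calls of Akr1b8 in the LE over control skin were kept in all 12 fits that left out 1 array, with adjusted p of at most 0.000919 at D4 and 0.00112 at D7. The hub call at D4 was lost in 8 of those fits, with adjusted p of 0.29 without hub D4 replicate 1, 0.0571 without hub D4 replicate 2, 0.0878 and 0.0735 without control D4 replicate 1 and 2, 0.0577 without either LE array of D7 and 0.0622 without either control array of D7, and it was 0.202 in a fit on the D4 arrays alone. At D7 it was lost without hub replicate 2 (0.0898) and without control replicate 1 (0.0645) or 2 (0.0615). The excess over the hub was lost at D4 without LE replicate 1 (0.0587) or hub replicate 2 (0.064), and at D7 without LE replicate 1 (0.0772). All these fits kept the sign. Its close relatives Akr1b3 and Akr1b7 are not analysed here. Akr1b10, which carries the name of the human enzyme nearest in role, differed by 0.07 at D4 (adjusted p = 0.831) and 0.08 at D7 (adjusted p = 0.792) between LE and control on its lead probe set. In a fit over every probe set of 1 gene, 1425684_PM_at gave 0.52 at D4 and 0.61 at D7 (SE 0.47, adjusted p = 0.601 and 0.488). The third, 1425685_PM_at, gave 0.31 and 0.20 (SE 0.21, adjusted p = 0.441 and 0.638).

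Hmox1, haem oxygenase 1, breaks haem into biliverdin, iron and carbon monoxide and is among the most inducible NRF2 and BACH1 targets. At D4 it read 9.98 and 9.82 in LE, 7.40 and 8.00 in the hub, and 6.82 and 6.89 in control skin. Its D7 values were 8.21 and 7.88 in LE, 6.64 and 6.36 in the hub, and 5.25 and 5.52 in control skin. The LE arrays lay above all others of the day, and the hub arrays above the control arrays. The difference of LE from control skin was 3.05 at D4 (SE 0.20, 8.27-fold, adjusted p = 2.39e-05), the largest of the 10 genes that day, and 2.66 at D7 (SE 0.20, 6.33-fold, adjusted p = 6.34e-05). Between LE and hub it was 2.20 at D4 (SE 0.20, adjusted p = 0.000396) and 1.55 at D7 (SE 0.20, adjusted p = 0.00527). Between hub and control skin it was 0.85 at D4 (SE 0.20, adjusted p = 0.139) and 1.11 at D7 (SE 0.20, adjusted p = 0.0419).

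The D7 hub call of Hmox1 was lost in 8 of the 12 fits that left out an array: those without hub D7 replicate 1 (adjusted p 0.182) or 2 (0.198), control D7 replicate 1 (0.212) or 2 (0.12), either LE array of D4 (0.0593) and either LE array of D7 (0.0671). It was also lost with quantile normalization (0.0693) and with a replicate block (0.062). The LE calls over control skin were kept in all 12 on both days, and so was the call over the hub at D4. The call over the hub at D7 was lost without LE replicate 1 (0.0628) or hub replicate 2 (0.0591). Macrophages also express Hmox1. Of 9 listed markers of macrophages and neutrophils 8 were measured, and their mean ran from 5.19 to 5.49 in LE, 5.05 to 5.18 in the hub and 5.08 to 5.41 in control skin at D4, and from 3.81 to 3.87 in LE, 3.82 to 3.91 in the hub and 3.73 to 3.84 in control skin at D7. Of these 8, those below the array median numbered 5 in LE, 8 in the hub and 8 in control skin at D4, and 7 in LE, 7 in the hub and 8 in control skin at D7. Cd68, a lysosomal protein of macrophages, was the 1 marker called, at 1.14 in LE over control skin at D4 (adjusted p = 0.0368). The part of such cells in the Hmox1 values was not tested.

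The members that handle peroxides differed among themselves. Srxn1, sulfiredoxin, restores overoxidized peroxiredoxins. Its lead probe set (1451680_PM_at) read 9.34 and 9.47 in LE, 8.33 and 8.37 in the hub, and 7.96 and 7.41 in control skin at D4. At D7 the values were 8.57 and 8.46 in LE, 7.50 and 7.59 in the hub, and 6.62 and 7.19 in control skin. The LE stood clear of both other regions on each day, by 1.72 over control skin at D4 (SE 0.20, adjusted p = 0.000548) and 1.61 at D7 (SE 0.20, adjusted p = 0.000943). Over the hub it was 1.06 higher at D4 (SE 0.20, adjusted p = 0.0174) and 0.97 higher at D7 (SE 0.20, adjusted p = 0.0403). The hub over control skin gave 0.66 at D4 (adjusted p = 0.232) and 0.64 at D7 (adjusted p = 0.213), with no overlap of arrays on either day. The call over the hub at D4 was lost without LE D4 replicate 1 (0.0698) or 2 (0.0744) and without hub D4 replicate 1 (0.076) or 2 (0.0923), and on the D4 arrays alone (0.0688). At D7 it was lost without any LE or hub array of either day, with adjusted p between 0.0516 (without either LE array of D4) and 0.223 (without LE D7 replicate 1), and with quantile normalization (0.062).

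The 4 probe sets of Srxn1 allow a check within the gene. In a fit over every probe set of 1 gene, 1419942_PM_at gave 1.79 and 2.10 in LE over control skin at D4 and D7, 1426875_PM_s_at gave 1.70 and 1.88, and 1425351_PM_at gave 0.98 and 0.60. The last read 6.62 and 6.31 in LE, 5.76 and 5.51 in the hub and 5.86 and 5.11 in control skin at D4, and at D7 it read 4.38 and 3.76 in LE, 3.77 and 3.49 in the hub and 3.46 and 3.48 in control skin; its adjusted p in LE at D7 was 0.177. In the hub over control skin at D7, 1419942_PM_at and 1426875_PM_s_at were called at 1.10 (adjusted p = 0.00661) and 0.81 (adjusted p = 0.0449), while 1425351_PM_at gave 0.16 (adjusted p = 0.886). For Srxn1 the hub call thus depends on the probe set read. In LE over hub, 1419942_PM_at gave 1.25 at D4 (adjusted p = 0.000666) and 1.01 at D7 (adjusted p = 0.00496). There 1426875_PM_s_at gave 1.33 (adjusted p = 0.00113) and 1.08 (adjusted p = 0.0064), while 1425351_PM_at gave 0.83 (adjusted p = 0.12) and 0.44 (adjusted p = 0.485).

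**Figure D2:**
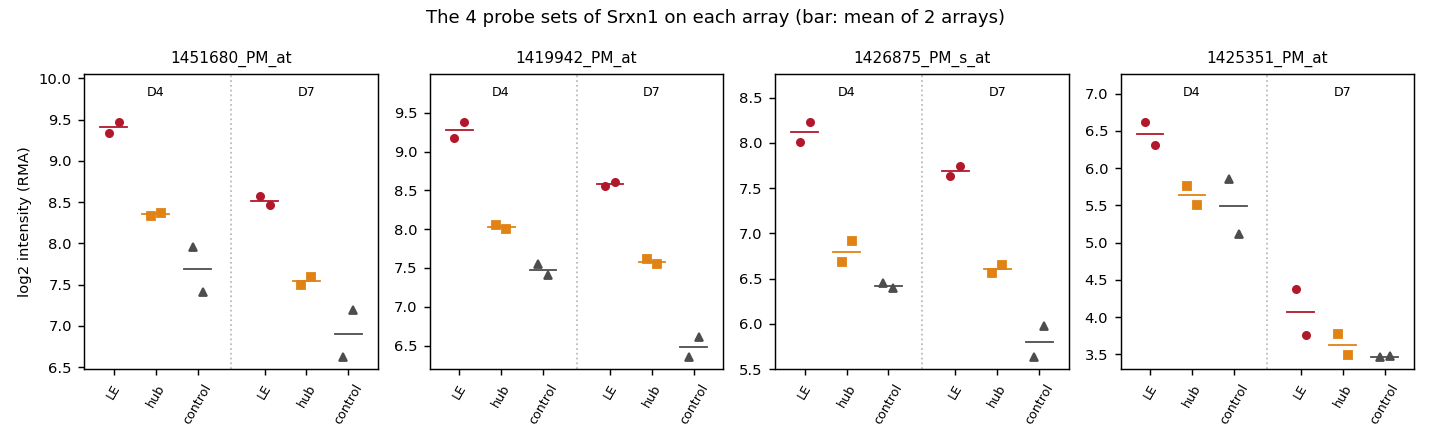
Log2 intensity (RMA) of the 4 probe sets of Srxn1 on every array, the lead probe set first; points are arrays, bars the mean of 2 arrays, groups run LE, hub and control at D4 and then at D7. LE lies above hub and control in every panel except that of 1425351_PM_at at D7, where LE and hub overlap, and the hub arrays of D7 stand apart from control most clearly in 1419942_PM_at, at 7.55 and 7.61 against 6.35 and 6.61.

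Gpx2, a glutathione peroxidase of epithelia, reduces peroxides with glutathione. It read 7.93 and 8.13 in LE, 7.67 and 7.66 in the hub, and 6.66 and 6.24 in control skin at D4. At D7 it read 6.46 and 6.63 in LE, 5.81 and 6.51 in the hub, and 5.25 and 4.90 in control skin. Both wound regions lay above control skin, and at D7 hub replicate 2 reached into the LE range. LE differed from control skin by 1.58 at D4 (SE 0.23, adjusted p = 0.00153) and 1.47 at D7 (SE 0.23, adjusted p = 0.00263), calls kept in all 12 fits without 1 array. The hub differed from control skin by 1.21 at D4 (SE 0.23, adjusted p = 0.0706) and 1.09 at D7 (SE 0.23, adjusted p = 0.0733), and the D4 difference was called without either hub array of D7 (0.0423). LE minus hub was 0.37 (95% interval -0.14 to 0.87, adjusted p = 0.515) at D4 and 0.38 (95% interval -0.12 to 0.89, adjusted p = 0.473) at D7.

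Txnrd1, cytosolic thioredoxin reductase, recharges thioredoxin with NADPH. It read 9.77 and 9.37 in LE, 9.89 and 9.31 in the hub, and 9.39 and 9.24 in control skin at D4. Its D7 values were 8.86 and 8.59 in LE, 8.54 and 8.43 in the hub, and 8.48 and 8.36 in control skin. The groups overlapped in the comparisons with control skin at D4 and in the hub at D7. LE minus control was 0.25 at D4 (95% interval -0.19 to 0.69, adjusted p = 0.516) and 0.30 at D7 (95% interval -0.14 to 0.74, adjusted p = 0.39). Hub minus control was 0.28 at D4 (adjusted p = 0.731) and 0.06 at D7 (adjusted p = 0.948).

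Gsta4 is a glutathione S-transferase that detoxifies reactive aldehydes from lipid peroxidation. It read 11.16 and 10.79 in LE, 10.14 and 9.98 in the hub, and 9.71 and 9.23 in control skin at D4. The D7 arrays gave 9.01 and 8.84 in LE, 7.90 and 7.72 in the hub, and 6.91 and 6.93 in control skin. As with Akr1b8, the order was LE, hub, control on both days with no overlap. The LE differed from control skin by 1.51 at D4 (SE 0.18, adjusted p = 0.00048) and by 2.00 at D7 (SE 0.18, 4.01-fold, adjusted p = 0.00014), and both calls were kept in all 12 fits without 1 array. LE minus hub was 0.91 at D4 (SE 0.18, adjusted p = 0.0168) and 1.12 at D7 (SE 0.18, adjusted p = 0.0126). The D4 call over the hub was lost without LE replicate 1 (0.111) or hub replicate 2 (0.124) and on the D4 arrays alone (0.116), and the D7 call without LE replicate 1 (0.112) or 2 (0.0524) and without hub replicate 1 (0.0585) or 2 (0.113). Hub minus control was 0.59 at D4 (adjusted p = 0.21) and 0.89 at D7 (adjusted p = 0.0589), and the D7 value was called without either control array of D4 (0.0315), in the fit on the D7 arrays alone (0.0249), without dim genes (0.0452) and with a trended and robust prior (0.0177).

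Glutathione itself is made in a first step by a ligase with a catalytic subunit, Gclc, and a modifier subunit, Gclm. Gclm read 9.08 and 9.36 in LE, 9.08 and 8.91 in the hub, and 8.48 and 8.58 in control skin at D4. At D7 it read 8.45 and 8.46 in LE, 8.14 and 8.25 in the hub, and 7.67 and 7.66 in control skin. It was higher in LE than in control skin by 0.69 at D4 (SE 0.12, adjusted p = 0.00433) and 0.79 at D7 (SE 0.12, adjusted p = 0.00239), in all 12 fits without 1 array, and no hub array overlapped with control. The hub values, 0.46 at D4 (adjusted p = 0.159) and 0.53 at D7 (adjusted p = 0.0928), were not called. LE minus hub was 0.23 at D4 (adjusted p = 0.412), where their arrays overlapped, and 0.26 at D7 (adjusted p = 0.342).

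Gclc read 7.81 and 8.82 in LE, 7.85 and 7.86 in the hub, and 8.06 and 8.04 in control skin at D4. The D7 arrays gave 7.54 and 7.58 in LE, 7.40 and 7.43 in the hub, and 7.51 and 7.36 in control skin. The 2 LE arrays of D4 lay on either side of control skin. LE minus control was 0.26 at D4 (95% interval -0.29 to 0.82, adjusted p = 0.609) and 0.12 at D7 (95% interval -0.43 to 0.67, adjusted p = 0.83). The D4 value was 0.77 without LE replicate 1 (adjusted p = 0.00519) and -0.24 without LE replicate 2 (adjusted p = 0.256), so 1 array sets its sign. Its hub values were -0.20 at D4 (adjusted p = 0.933) and -0.02 at D7 (adjusted p = 0.987). The subunits were not compared with each other, because levels of different probe sets are not on one scale.

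Slc7a11, the cystine carrier of the xCT exchanger, brings in the cystine from which glutathione is made, and is also a target of ATF4. Its lead probe set (1420413_PM_at) lay below the array median in every group. It read 4.53 and 4.36 in LE, 4.36 and 4.22 in the hub, and 4.20 and 4.07 in control skin at D4. At D7 it read 3.36 and 3.64 in LE, 3.10 and 3.28 in the hub, and 3.42 and 3.29 in control skin. LE minus control was 0.31 at D4 (95% interval 0.02 to 0.61, adjusted p = 0.17) and 0.14 at D7 (95% interval -0.16 to 0.44, adjusted p = 0.583). Hub minus control was 0.15 at D4 (adjusted p = 0.829) and -0.17 at D7 (adjusted p = 0.678), and LE minus hub 0.16 (adjusted p = 0.685) and 0.31 (adjusted p = 0.294). The second probe set (1443536_PM_at) read between 2.92 and 4.19 over the 12 arrays, likewise below the median of each array. In a fit over every probe set of 1 gene it gave 0.22 at D4 (adjusted p = 0.303) and 0.19 at D7 (adjusted p = 0.372) in LE over control skin. On the lead probe set both LE arrays lay above both control arrays at D4, and the groups overlapped at D7. No change of Slc7a11 was called, and the part of the low signal in this was not tested.

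Nqo1 reduces quinones in a step of 2 electrons and is a standard readout of NRF2. It read 7.33 and 7.01 in LE, 7.39 and 6.64 in the hub, and 6.55 and 6.03 in control skin at D4. Its D7 values were 6.73 and 6.61 in LE, 6.23 and 6.55 in the hub, and 5.79 and 6.08 in control skin. Every wound array lay above every control array of its day, and LE and hub overlapped at D4. LE minus control was 0.88 at D4 (SE 0.26, adjusted p = 0.047) and 0.73 at D7 (SE 0.26, adjusted p = 0.0899). The D4 call was lost in 9 of 12 fits, with adjusted p of 0.228 and 0.0742 without LE D4 replicate 1 and 2, 0.254 without control D4 replicate 2, 0.0716 without either LE array of D7, 0.0627 without either hub array of D7 and 0.0609 without either control array of D7. It was also lost with each array centred on its median (0.054), with quantile normalization (0.057) and on the D4 arrays alone (0.147). At D7 Nqo1 was called without either hub array of D4 (0.0435) and on the D7 arrays alone (0.0183). Hub minus control was 0.73 at D4 (adjusted p = 0.303) and 0.46 at D7 (adjusted p = 0.514).

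**Figure D3:**
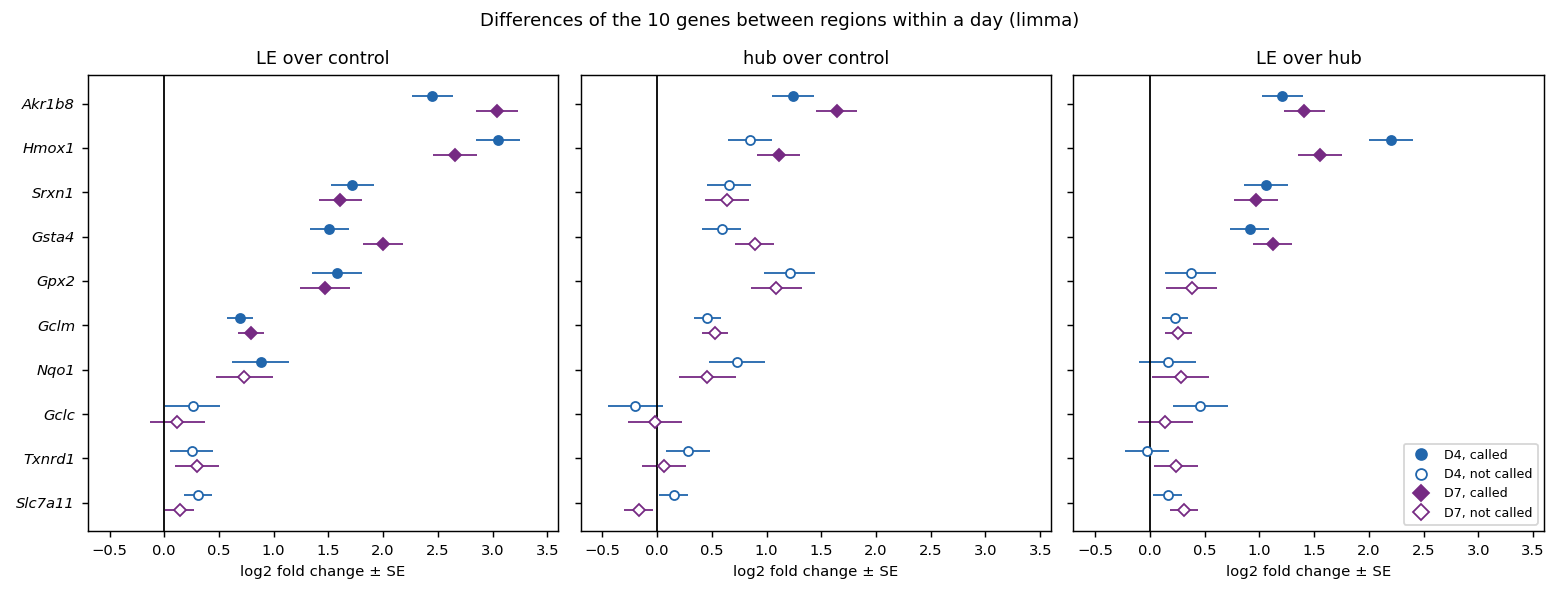
Log2 fold change (x axis, bars ± SE from limma) of the 10 genes for LE over control, hub over control and LE over hub, with D4 as circles and D7 as diamonds, filled where the adjusted p lies below 0.05. Akr1b8 and Hmox1 lie farthest to the right in LE over control, at 2.45 and 3.05 at D4, and Gclc, Txnrd1 and Slc7a11 lie between -0.20 and 0.46 in all panels.

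Set directly against the hub, the LE was higher for 4 of the 10 genes on each day, Akr1b8, Hmox1, Srxn1 and Gsta4 at D4 and at D7, and lower for none. The background was 2.61% upwards and 2.15% downwards for D4, and 1.33% upwards and 1.4% downwards for D7. The median of the 10 genes was 0.41 at D4 and 0.35 at D7, against 0.03 and 0.01 over all genes. At D4 the calls of Akr1b8, Srxn1 and Gsta4 were lost without LE D4 replicate 1 and also without hub D4 replicate 2. Without LE D4 replicate 1, Gclc, which is not among the 4, had a value of 0.97 and was called. On the D4 arrays alone the D4 count was 2. The D7 count was 0 without LE D7 replicate 1, 1 without hub D7 replicate 2, and 2 without LE D7 replicate 2 or hub D7 replicate 1. The 6 genes not called had values from -0.03 (Txnrd1) to 0.46 (Gclc) at D4 and from 0.14 (Gclc) to 0.38 (Gpx2) at D7, and a p above the threshold does not show that the regions are alike for them.

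A fold rule after the study's methods, more than 2-fold in each replicate, was applied here to arrays of the same replicate number, a matching the methods do not state. It gave Akr1b8, Hmox1, Srxn1, Gsta4 and Gpx2 in LE over control skin on both days, where 2.26% of all genes passed upwards at D4 and 1.83% at D7. In the hub over control skin Akr1b8 and Gpx2 passed at D4 (0.357% of all genes) and Akr1b8 at D7 (0.328%). In LE over hub Akr1b8, Hmox1 and Srxn1 passed at D4 (1.08%), and Hmox1 and Gsta4 at D7 (0.597%). Counted by arrays without overlap, 8 members lay higher in LE than in control skin at D4 and 9 at D7, where 29.2% and 31.5% of all genes did. In the hub at D4, 8 members lay above control skin and Gclc below it, against 21.2% of all genes above and 18% below. In the hub at D7, 7 lay above and Slc7a11 below, against 25.8% above and 18.1% below. In LE over hub 5 members lay higher at D4 and 9 at D7, where 25.2% and 25.7% of all genes did.

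No member's change over control skin differed between the days by the interaction test. For LE, 0.0292% of all genes (5 genes) passed that test, and 1337 had an unadjusted p below 0.05. For the hub 0% passed, and 780 genes had an unadjusted p below 0.05. The difference, D7 minus D4, was 0.59 for Akr1b8 in LE (95% interval -0.02 to 1.20, adjusted p = 0.654), 0.50 for Gsta4 (95% interval -0.06 to 1.05, adjusted p = 0.681) and -0.39 for Hmox1 (95% interval -1.02 to 0.25, adjusted p = 0.819). In the hub all 10 genes had an adjusted p of 0.999, and the unadjusted count among the members was 0 in both regions. The intervals of Akr1b8 and Gsta4 thus include both no difference and a larger change at D7. The D4 and D7 arrays also differ in their medians, and a difference between days cannot be told apart from that difference in scale.

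Of 9 regulators of the pathway measured, 3 were called in LE over control skin on each day, Nfe2l2 upwards and Bach1 and Mafk downwards, where 8.3% of all genes were called upwards and 5.83% downwards at D4 and 9.25% and 5.37% at D7. The median of the 9 was -0.22 at D4 and -0.12 at D7, and none was called in the hub. Nfe2l2 read 9.09 and 8.78 in LE, 8.68 and 8.37 in the hub, and 8.34 and 8.22 in control skin at D4. The D7 arrays gave 8.18 and 8.17 in LE, 7.60 and 7.93 in the hub, and 7.48 and 7.20 in control skin. It was higher in LE than in control skin by 0.65 at D4 (SE 0.17, adjusted p = 0.0279) and 0.84 at D7 (adjusted p = 0.00918). Its second, dimmer probe set (1457117_PM_at) gave 0.12 (adjusted p = 0.641) and 0.17 (adjusted p = 0.428). In the hub the lead probe set gave 0.24 at D4 (adjusted p = 0.73) and 0.42 at D7 (adjusted p = 0.32).

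Bach1, which encodes the repressor of the same elements, read 8.81 and 9.02 in LE, 9.26 and 9.28 in the hub, and 9.35 and 9.52 in control skin at D4. The D7 arrays gave 7.47 and 7.24 in LE, 7.86 and 7.95 in the hub, and 8.26 and 8.03 in control skin. It was lower in LE than in control skin, by -0.52 at D4 (SE 0.13, adjusted p = 0.0253) and -0.79 at D7 (adjusted p = 0.00352), and its second probe set (1440831_PM_at) gave -0.43 (adjusted p = 0.222) and -0.92 (adjusted p = 0.0149). Mafk, a small MAF partner, was lower as well, by -0.62 at D4 (adjusted p = 0.0196) and -0.63 at D7 (adjusted p = 0.0184). Leaving out 1 array ended the call of Nfe2l2 in 3 fits at D4 (highest adjusted p 0.171, LE replicate 1 or either control array) and 2 at D7 (0.0735, LE replicate 1 or control replicate 2), that of Bach1 in 2 at D4 (0.146, LE replicate 1 or control replicate 2), and that of Mafk in 2 on each day (0.114 at D4, LE replicate 2 or control replicate 1; 0.126 at D7, LE replicate 1 or control replicate 2). On the D4 arrays alone the D4 calls of Nfe2l2 (0.0708), Bach1 (0.0604) and Mafk (0.0779) were lost, and that of Bach1 also with the mean of its probe sets (0.0645). Keap1 and Sqstm1 are not analysed here. These are RNA levels, and NRF2 protein was not measured.

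**Figure D4:**
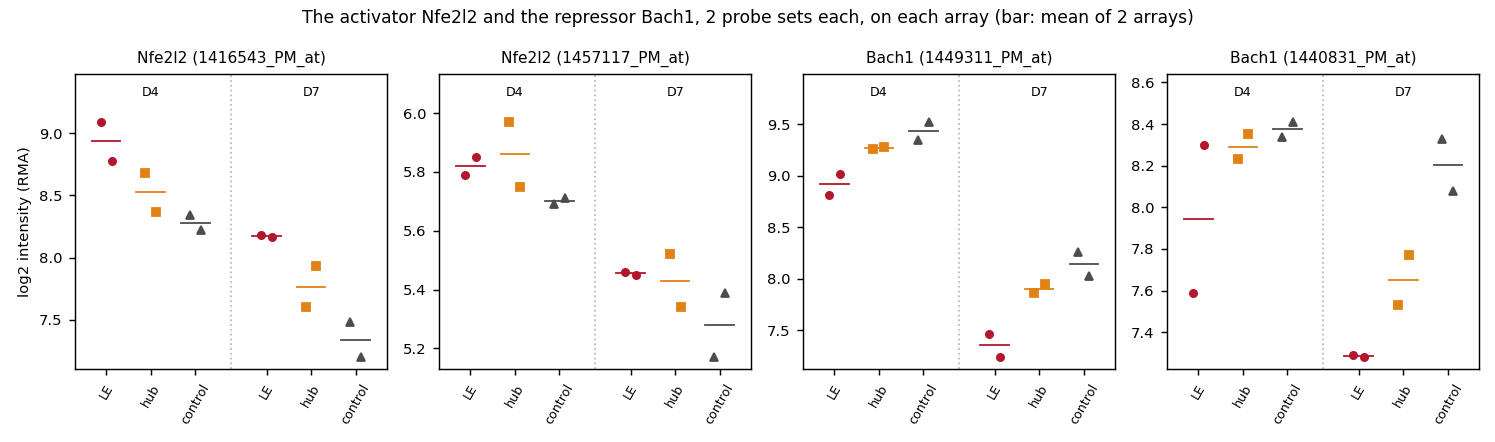
Log2 intensity (RMA) of the 2 probe sets of Nfe2l2 and the 2 of Bach1 on every array, lead probe set first; points are arrays, bars the mean of 2 arrays, groups run LE, hub and control at D4 and then at D7. On the lead probe sets LE lies above control for Nfe2l2 (8.78 and 9.09 against 8.22 and 8.34 at D4) and below it for Bach1 (8.81 and 9.02 against 9.35 and 9.52).

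Beyond the 10 genes, 11 lists of antioxidant and detoxification genes held 119 genes, of which 104 were measured. These lists too were chosen with earlier results of these data known. In LE over control skin limma called 17 (16.3%) upwards and 13 (12.5%) downwards at D4. At D7 it called 19 (18.3%) upwards and 14 (13.5%) downwards, with a median of 0.05 on both days. Over all genes the shares were 8.3% upwards and 5.83% downwards at D4, and 9.25% and 5.37% at D7. In the hub over control skin limma called 0 of 104 on either day, and 23 had an unadjusted p below 0.05 at D4 and 32 at D7. With a trended and robust prior the hub had 3 calls at D4 (2 upwards) and 5 at D7 (4 upwards), and with a replicate block it had 4 at D4 (3 upwards). Against the hub, 7 genes were up and 9 down in LE at D4. At D7, 5 were up and 9 down. These are 6.73% up and 8.65% down at D4 and 4.81% up and 8.65% down at D7, against 2.61% and 2.15% of all genes at D4 and 1.33% and 1.4% at D7. Without LE D7 replicate 1 the D7 counts over control skin were 9 higher and 9 lower, and without control D4 replicate 1 those of D4 had 11 higher. In LE over hub, 1 was higher at D4 without LE D4 replicate 1, and 1 higher and 0 lower at D7 without LE D7 replicate 1.

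Glutathione genes moved in both directions in LE over control skin. Glrx, a glutaredoxin that reduces glutathione-bound proteins, was higher by 2.23 at D4 (adjusted p = 0.000568) and 1.43 at D7 (adjusted p = 0.00652; lost at D7 without LE or control replicate 1, at most 0.0534). Oplah, which returns oxoproline to glutamate in the recycling of glutathione, was lower by -1.52 at D4 and -1.11 at D7. Ggct of the same list was higher by 1.02 at D4 (adjusted p = 0.023), with 0.70 at D7 (adjusted p = 0.0977). Slc7a5 gave -0.05 at D4 (adjusted p = 0.923) and was higher by 0.82 at D7 (adjusted p = 0.0132). Over the 12 fits without 1 array the D4 value of Ggct ran from 0.75 to 1.29, and the D7 value of Slc7a5 from 0.73 to 0.90. The Ggct call was lost without LE D4 replicate 2 or either control array of D4. The Slc7a5 call was lost without either LE array of D7 or control D7 replicate 2. Among 17 other glutathione S-transferases limma called 3 upwards and 4 downwards at D4, and 3 upwards and 6 downwards at D7, against 8.3% and 5.83% of all genes at D4 and 9.25% and 5.37% at D7. Gstm1, Gstm2 and Gstt3 fell by 1.30, 1.59 and 1.84 at D4, and were at -1.01, -1.05 and -1.52 at D7, in all 12 fits without 1 array, opposite to Gsta4. Gsta2, of the alpha class like Gsta4, was higher by 1.70 at D4 (adjusted p = 0.0327) and gave 0.97 at D7 (adjusted p = 0.204), with 5 of 12 fits losing the D4 call (highest 0.203, LE replicate 1, either control array, or either LE array of D7) and with the mean of its probe sets losing it too (0.88, 0.0518). Of 7 other glutathione peroxidases Gpx3, the secreted one, was called at D7 (0.80, adjusted p = 0.0135; lost without LE replicate 2 or control replicate 1, at most 0.0959).

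The thioredoxin list (10 measured) had 2 upward calls and 1 downward at D4, with 3 and 1 at D7, where all genes had 8.3% and 5.83% at D4 and 9.25% and 5.37% at D7. Txnip, which binds and inhibits thioredoxin, was lower by -1.69 at D4 (adjusted p = 0.000136) and -1.76 at D7 (adjusted p = 0.00014). Txnl1, a thioredoxin-like protein, was higher by 0.80 (adjusted p = 0.00325) and 1.01 (adjusted p = 0.00105), and Prdx3, the mitochondrial peroxiredoxin, by 1.02 (adjusted p = 0.0155) and 0.85 (adjusted p = 0.0346). The Prdx3 call was lost without LE D4 replicate 2 or control D4 replicate 2 at D4 (at most 0.0981), and in 5 fits at D7 (at most 0.229; LE D7 replicate 1 and any hub or control array of D7). Txn2 of this list gave 0.15 at D4 (adjusted p = 0.439) and 0.37 at D7 (adjusted p = 0.036), a call kept in 4 of 8 other alternatives. Among genes that supply NADPH, Pgd of the pentose phosphate pathway was higher by 0.96 at D4 (adjusted p = 0.00142) and 0.90 at D7 (adjusted p = 0.00239). Idh1 gave 0.59 at D4 (adjusted p = 0.0498), a call kept in 3 of 8 other alternatives, and 0.56 at D7 (adjusted p = 0.058). Of the superoxide dismutases and catalase, Sod2 was called at D7 (0.69, adjusted p = 0.00658; 0.0606 without LE replicate 1), and of haem and iron genes Blvra, which turns biliverdin into bilirubin, was called at D7 (0.74, adjusted p = 0.00618; 0.0521 without LE replicate 1).

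In the list of quinone, epoxide and carbonyl detoxification (13 measured), 4 genes were up and 4 down at D4, with 3 up and 4 down at D7, beside 8.3% up and 5.83% down over all genes at D4 and 9.25% up and 5.37% down at D7. Ephx1, microsomal epoxide hydrolase, was lower by -2.08 at D4 (adjusted p = 3.86e-05) and -1.21 at D7 (adjusted p = 0.000943). Aldh3a1, an aldehyde dehydrogenase of epithelia, was lower by -1.60 (adjusted p = 0.00103) and -1.65 (adjusted p = 0.00103). Adh7, an alcohol dehydrogenase that can oxidize retinol, was lower by -1.28 (adjusted p = 0.00538) and -1.23 (adjusted p = 0.00716; lost at D7 without LE replicate 1 or control replicate 2, at most 0.0696). Nqo2, the relative of Nqo1, gave 1.26 at D4 (adjusted p = 0.0308), a call lost in 4 fits (at most 0.182; LE D4 replicate 2, control D4 replicate 1 and either LE array of D7), on the D4 arrays alone (0.133) and with the mean of its probe sets (0.49, 0.0884), and 0.77 at D7 (adjusted p = 0.163). Of 11 other aldo-keto reductases measured only Akr1c18, which inactivates progesterone, was called, at 2.47 at D4 (adjusted p = 0.00873; lost without LE replicate 1 or control replicate 2, at most 0.061), with 0.81 at D7 (adjusted p = 0.35).

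ATF4, the regulator of the amino acid response, shares Slc7a11 with NRF2. A list of 8 genes of the ATF4 response, Atf4 itself included, had 2 upward calls and 1 downward at D4 and 3 upward at D7, against 8.3% and 5.83% of all genes at D4 and 9.25% and 5.37% at D7. Trib3, a pseudokinase, was higher in LE than in control skin by 2.35 at D4 (adjusted p = 7.29e-05) and 2.05 at D7 (adjusted p = 0.000222). Sesn2, a stress-induced sestrin, was higher by 0.75 (adjusted p = 0.00753; 0.0517 without LE D4 replicate 1) and 0.70 (adjusted p = 0.0106; at most 0.0806 without LE or control D7 replicate 1). Asns, asparagine synthetase, gave 0.42 at D4 (adjusted p = 0.0838) and was called at 1.04 at D7 (adjusted p = 0.00138). Phgdh, the first enzyme of serine synthesis, was lower at D4, by -0.92 (adjusted p = 0.00342), and gave -0.36 at D7 (adjusted p = 0.167).

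**Figure D5:**
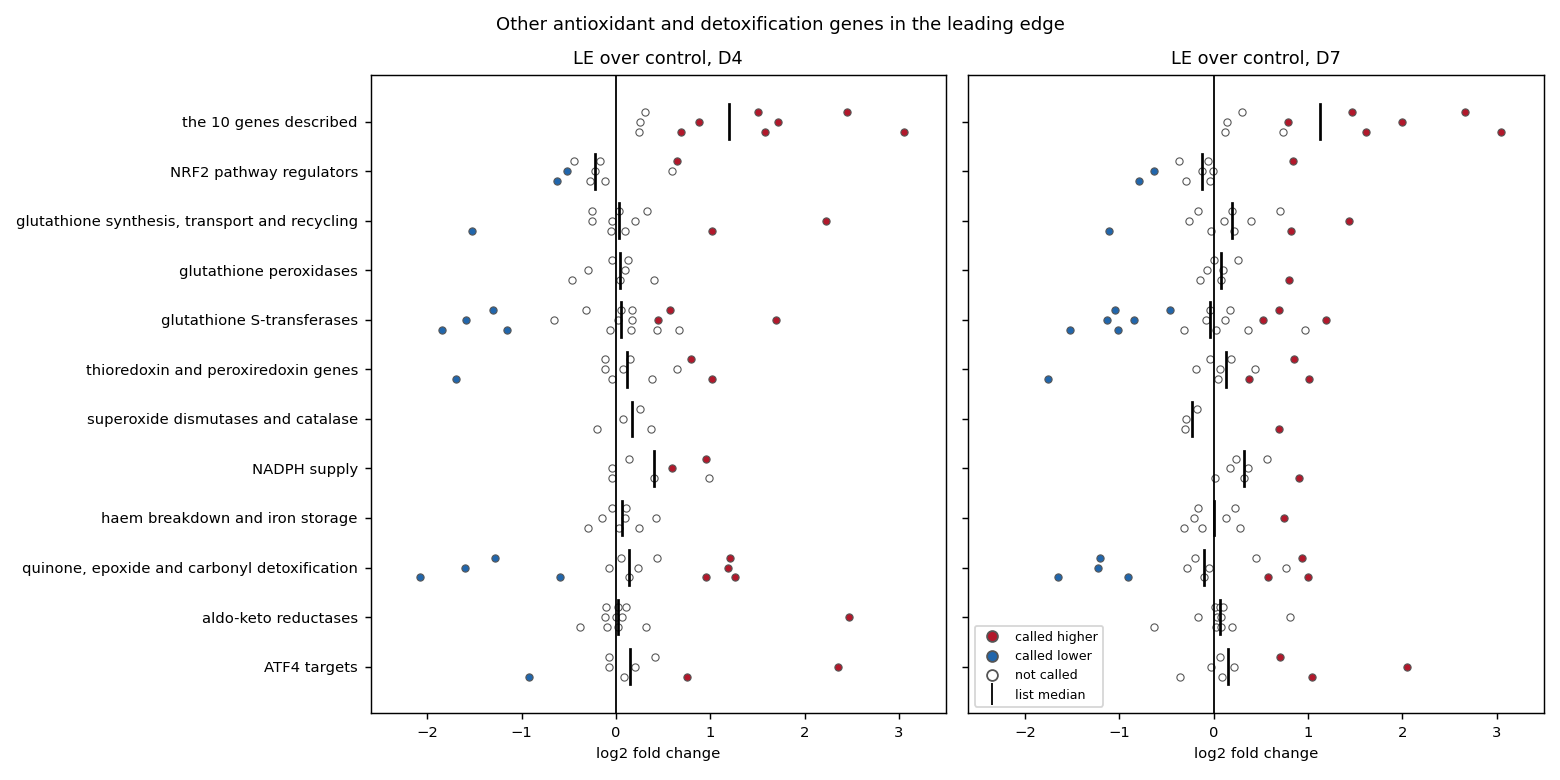
Log2 fold change (x axis) in LE over control at D4 and D7 for the 10 genes and for each of the 11 lists; every circle is a gene, red where called higher, blue where called lower, open where not called, and the black bar is the list median. The median of the 10 genes lies at 1.20 and 1.13, and the lists hold called genes on both sides of 0, such as Glrx at 2.23 and Oplah at -1.52 at D4.

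The 5 genes most like Akr1b8 over the 12 arrays, after the mean of each day was taken off, were Rbp2 (Pearson r 0.991), Spcs2 (0.991), Ldha (0.99), Pdpn (0.99) and Prelid1 (0.989). For LE over control skin Rbp2, a retinol carrier, gave 3.24 at D4 and 4.11 at D7, and Pdpn, which encodes podoplanin, gave 3.14 and 3.37. Ldha, lactate dehydrogenase, gave 0.47 and 0.60. Of the other 9 members Gsta4 had the highest r with Akr1b8 (0.97), followed by Gclm (0.95), Hmox1 (0.94), Srxn1 (0.94), Gpx2 (0.92), Nqo1 (0.83), Txnrd1 (0.60), Slc7a11 (0.56) and Gclc (0.24). The 12 points share the regional differences, so r describes them and carries no p.

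Markers of other cell types differed between some groups. The endothelial list (6 measured) had a mean of 5.29 to 5.44 in LE at D7, against 4.25 to 4.50 in the hub and 4.28 to 4.57 in control skin, with 2 of 6 below the array median in LE, 4 in the hub and 3 in control skin. Cdh5 and Cldn5 were called over control skin, and Cdh5 over the hub. At D4 the list ran from 5.79 to 6.25 in LE, 5.40 to 5.96 in the hub and 5.16 to 6.33 in control skin. The melanocyte list (7 measured) ran from 5.23 to 5.38 in LE, 5.52 to 7.69 in the hub and 5.56 to 6.98 in control skin at D4, with 5 of 7 below the array median in LE, 2 in the hub and 1 in control skin. At D7 it ran from 4.14 to 4.17 in LE, 4.36 to 4.48 in the hub and 4.44 to 4.45 in control skin. Mitf, the melanocyte regulator, was lower in LE than in control skin by -1.06 at D4 (adjusted p = 0.0121) and -0.89 at D7 (adjusted p = 0.0269). Of the other marker lists, Krt1 and Krt10 of suprabasal cells were lower in LE at D4 (-0.77 and -0.69), Plet1 of the infundibulum list (-0.86) and Dcn of the fibroblast list (-2.59) were lower at D7, and Hba-a2 of red blood cells was lower on both days (-0.38 and -0.34). Fgf18 of the bulge list was higher on both days (2.10 and 1.00). Pparg of the sebaceous list (1.20) and Epcam of the T cell and Langerhans cell list (0.61) were higher at D4. Each was the only gene of its list called there, and the lists did not rise as a whole. The bulge list had a median of 0.23 at D4 (3 of 6 genes above 0) and -0.25 at D7 (2 of 6). At D4 the sebaceous list had 0.16 (3 of 5), and the T cell and Langerhans cell list -0.02 (2 of 7). The study itself names Fgf18 among genes upregulated at the LE. The part of such cells in the values of the 10 genes was not tested.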

How the data were processed

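Gene expression was measured on 12 Affymetrix mouse expression arrays (3′ design, perfect-match probes). The deposited table held log2 intensities that the authors had normalized by RMA, which corrects background, equalizes the arrays and summarizes the probes of a probe set. The sources used here name no software version. Of 45141 probe sets, 104 controls, 551 paired with several genes and 15588 paired with none were left out, and the brightest of the remaining probe sets of a gene stood for it. All 17097 genes were fitted with limma 3.58.1 in R 4.3.3 (lmFit, contrasts and eBayes on the 6 groups, 6 residual degrees of freedom), with p adjusted by the Benjamini-Hochberg method over all genes and a threshold of 0.05. The fit was tested on simulated data.

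The 10 genes and the gene lists were chosen with earlier results of these data known. Beside the 10 genes, the text names up to 4 genes a list with the largest change among those called in a wound region against control, the regulators Nfe2l2, Bach1 and Keap1, the relatives of Akr1b8, and the 5 genes most like it. Mafk falls under the rule. Marker genes were named where called in LE over control. Alternatives changed the scaling, the choice of probe set, the filter on dim genes, the prior, the arrays fitted, the replicate block and the call rule, and left out each array in turn.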

Additional observations from a re-analysis of the deposited data

How the results depend on the processing

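For LE over control skin the calls of Akr1b8, Hmox1, Srxn1, Gsta4, Gpx2 and Gclm were kept on both days in all 12 fits without 1 array. The D4 call of Nqo1 was lost in some of them, and Gclc was called at D4 without LE D4 replicate 1, at 0.77. Leaving out an array gave 0 to 2 for the hub over control skin at D4, 0 to 3 at D7, 1 to 4 for LE over hub at D4 and 0 to 4 at D7, and 0 for both differences between days. The hub count at D4 (1) was 2 with a trended and robust prior, 0 on the D4 arrays alone and 2 by the fold rule. The hub count at D7 (2) was 1 with quantile normalization, 4 with the trended and robust prior and 1 by the fold rule. LE over hub (4 on each day) gave 2 at D4 on the D4 arrays alone and 2 at D7 by the fold rule.

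Only values that were not called changed sign, among the members and pathway genes named. Txnrd1 in the hub at D7 was -0.01 with quantile normalization. Without 1 array, Nqo1 in LE over hub at D4 ran from -0.22 to 0.53, Txnrd1 there from -0.32 to 0.26, Gclc there from -0.04 to 0.97, Gclc in LE at D4 from -0.24 to 0.77, Gclc in the hub at D7 from -0.10 to 0.05, Txnrd1 in the hub at D4 from -0.00491 to 0.57, Slc7a11 in LE at D7 from -0.00164 to 0.28, Slc7a5 in LE at D4 from -0.34 to 0.23 and Akr1b10 in LE at D7 from -0.06 to 0.21. The causes were not tested. Of all values of the 10 genes under the alternatives, 1108 kept direction and side of the threshold, 60 fell short of it, 16 newly passed it and 10 changed sign. The filter on dim genes (8549 kept) left out Slc7a11.

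Over all genes, the 2416 calls of LE over control at D4 were 1352 on the D4 arrays alone. The 56 hub calls at D4 were 148 with the trended and robust prior and 1 on the D4 arrays alone, and the 130 at D7 were 81 with quantile normalization and 205 with that prior. LE over hub had 813 calls at D4 and 263 on the D4 arrays alone, and 466 at D7 and 725 on the D7 arrays alone. The 5 genes whose LE change differed between days were 8 with quantile normalization, 3 without dim genes and 15 with the trended and robust prior, which also gave 1 for the hub (0). Leaving out an array brought these counts down to 1579 (LE D4 replicate 1), 1016 from 2499 in LE at D7 (LE D7 replicate 1), 6 (hub D4 replicate 1), 7 (hub D7 replicate 2), 322 (hub D4 replicate 2) and 71 (LE D7 replicate 1), and the LE day count ran from 3 to 49.

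Samples with the same replicate number deviated together with r of 0.17 to 0.245 at D4 and 0.00234 to 0.0666 at D7, and with only 2 numbers a day they were not taken as a pairing. A replicate block gave adjusted p of 0.015 for Nqo1 in LE at D7, 0.0214 for Gsta4 in the hub at D7 and 0.062 for Hmox1 in the hub at D7, and 118 hub calls at D4 over all genes. Of the 104 pathway genes, the block raised the upward calls of LE over hub at D4 to 12 (7 without it), and the D4 arrays alone gave 2 upwards and 5 downwards (9 on all arrays). The number of arrays, 2 a group, limits all calls, and the signal of Slc7a11 lay below the array medians.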
